A study of Mus musculus with 10 samples.

Results

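Long intergenic noncoding RNAs (lincRNAs) encoded on mouse chromosomes 6, 8, 11 and 15 were followed in embryonic stem (ES) cells that carry an extra copy of one of these chromosomes. The set holds every noncontrol probe of the array whose annotation calls it a lincRNA probe and whose mm9 position lies on one of the 4 chromosomes. These were 3417 probes to 717 intervals, of 16251 lincRNA probes to 3555 intervals on the array. Chromosome 6 had 979 probes to 197 intervals, chromosome 8 had 1017 to 217, chromosome 11 had 731 to 135 and chromosome 15 had 690 to 168. Another 118 lincRNA probes have no position, and 18 of them are described as lying on these 4 chromosomes; they were not used.

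LincRNAs are transcribed from DNA between protein-coding genes, are mostly spliced and polyadenylated like messenger RNAs, and are on average present at much lower levels. Some act in cis on neighbouring genes, some bind chromatin regulators, and for most no function is known. In a trisomic cell each gene of the extra chromosome has an added template, and the level of its RNA shows whether output follows copy number or departs from it. For most lincRNAs there is no protein whose amount could be set beside that of the RNA, so array signal is the only readout here.

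WT was AB1, a diploid male ES cell line, at passages 18 and 20. Each trisomic line had 3 copies of 1 chromosome and the labelled strain 129 S7/SvEvBrd: Ts6 was sampled at passages 9 and 18, Ts8 at 10 and 13, Ts11 at 8 and 11, and Ts15 at 11 and 14. Each group was thus 1 line measured on 2 arrays at different passages, so p-values cover the spread between passages of a line and not between independent lines with the same trisomy. All cells had been grown with γ-irradiated SNL76/7 feeder cells, which were reduced by letting the harvest settle, and total RNA was linearly amplified before Cy3 labelling. A level below is log2 of the processed signal minus the array's 75th percentile, so a level of 0 is that percentile. Array number, here 10, limits the precision of every value.

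Of the noncontrol spots, 71.4% to 80.2% were well above background per array, and no spot was saturated. All 12 ES cell markers were above background on every array. Of 19 fibroblast markers, 15 to 18 were above background per array, and their summed level was 5.89 to 5.90 in WT, 5.48 to 5.74 in Ts6, 5.54 to 5.76 in Ts8, 5.68 to 5.89 in Ts11 and 6.05 to 6.22 in Ts15, while the fibroblast gene Lum was at background throughout. The part of feeder RNA in the lincRNA differences was not tested. Both Ts15 arrays were on a slide of their own, so Ts15 and slide cannot be told apart. The mean of the lincRNA probes on the 15 autosomes trisomic in no line itself moved, from -0.18 (Ts15 replicate 2) to 0.17 (Ts8 replicate 2) relative to the WT mean, and chromosome-wide values below are relative to it.

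The probes are 60 bases long. The sequences that carry the results below are shown 5′ to 3′ with their mm9 position and strand as the array annotation gives them. The first 4 form 2 pairs of near-copies on chromosome 8; in each pair capitals mark the bases that differ, at 2 of 59 aligned bases in the first (96.6% identity) and 1 of 60 in the second (98.3%).
A_30_P01021174, chr8:19889381-19889440, forward: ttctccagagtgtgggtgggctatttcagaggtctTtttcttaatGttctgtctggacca
A_30_P01025672, chr8:72105412-72105471, forward: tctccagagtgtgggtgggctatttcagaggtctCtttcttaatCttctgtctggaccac
A_30_P01028647, chr8:73687900-73687959, forward: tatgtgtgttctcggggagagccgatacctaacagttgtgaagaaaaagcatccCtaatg
A_30_P01030048, chr8:74354311-74354370, reverse: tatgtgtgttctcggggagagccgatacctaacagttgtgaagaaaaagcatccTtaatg
RNA of one locus can bind the probe of its near-copy, so the signals of such pairs cannot be assigned to one locus. Of the unflagged members, 37 of 978 on chromosome 6, 71 of 1017 on chromosome 8, 31 of 731 on chromosome 11 and 30 of 690 on chromosome 15 shared a stretch of at least 25 bases with a probe of another interval or gene. The next probes are shown because the strongest single differences, or an interval in which every probe rose, were read from them.
A_30_P01030412, chr6:37654719-37654778, forward: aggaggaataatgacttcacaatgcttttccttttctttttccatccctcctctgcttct
A_30_P01019271, chr6:54595473-54595532, forward: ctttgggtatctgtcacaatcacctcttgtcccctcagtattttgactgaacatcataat
A_30_P01018450, chr8:108153620-108153679, reverse: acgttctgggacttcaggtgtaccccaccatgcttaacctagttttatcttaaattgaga
A_30_P01024798, chr8:90049342-90049401, forward: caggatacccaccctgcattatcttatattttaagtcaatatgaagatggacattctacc
A_30_P01028398, chr11:33436408-33436467, reverse: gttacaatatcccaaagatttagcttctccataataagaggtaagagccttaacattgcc
A_30_P01021790, chr11:51903130-51903189, forward: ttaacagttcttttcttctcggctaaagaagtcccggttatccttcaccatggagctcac
A_30_P01022762, chr11:97309504-97309563, forward: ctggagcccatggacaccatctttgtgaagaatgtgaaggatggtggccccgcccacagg
A_30_P01032038, chr15:96663596-96663655, forward: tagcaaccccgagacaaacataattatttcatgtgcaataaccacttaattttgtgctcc
A_30_P01022762 holds 58.3% G and C bases, and A_30_P01032038 holds 36.7%. The base composition of the probe is taken up again below.

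Relative to the lincRNAs of the 15 other autosomes, those of each of the 4 chromosomes were higher in the line that is trisomic for it. The shift is the mean log2 difference from WT over all unflagged members, minus that of this reference. On chromosome 6 it was 0.18 and 0.17 on the 2 Ts6 arrays, 0.17 ± 0.0066 (SD, n = 2) or 1.13-fold. On chromosome 8 it was 0.22 and 0.21 in Ts8, 0.22 ± 0.0057 or 1.16-fold, the highest of the 4 means. The shift of chromosome 11 was 0.18 ± 0.0088 in Ts11 (0.18 and 0.19 on its arrays). That of chromosome 15 was 0.14 ± 0.024 in Ts15 (0.15 and 0.12), which is 1.10-fold and the lowest of the 4. Without the reference, chromosome 15 members differed from WT by 0.080 and -0.056 on the 2 Ts15 arrays, 1 above and 1 below WT. Those of chromosomes 6, 8 and 11 differed by 0.25 and 0.26, 0.30 and 0.38, and 0.24 and 0.22 in their own lines. Output in proportion to 3 copies in place of 2 would give log2 of 1.5, or 0.58, and the measured means were 29.8%, 36.9%, 31.1% and 23.4% of that. As means over members chosen by chromosome, these values carry no test. In bulk RNA, fewer cells with a transcript and less of it in each cell cannot be told apart.

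In the 3 lines that do not carry the extra copy, the same lincRNAs lay between -0.096 and 0.019 on every array. Those of chromosome 8 were lowest, at means of -0.089 in Ts6, -0.047 in Ts11 and -0.040 in Ts15. For each chromosome the 2 arrays of its own line were above the other 8 arrays, so the groups did not overlap. For comparison, single autosomes that no line has gained moved by -0.099 to 0.11 in Ts6, -0.051 to 0.041 in Ts8, -0.070 to 0.079 in Ts11 and -0.043 to 0.076 in Ts15, all below the shift of the gained chromosome. Measured against the other probes of the 15 autosomes instead of against their lincRNAs, the shift of chromosome 8 was 0.31 and that of chromosome 15 was 0.013. With normexp background correction the shifts were 0.11, 0.16, 0.14 and 0.091 for chromosomes 6, 8, 11 and 15.

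**Figure D1:**
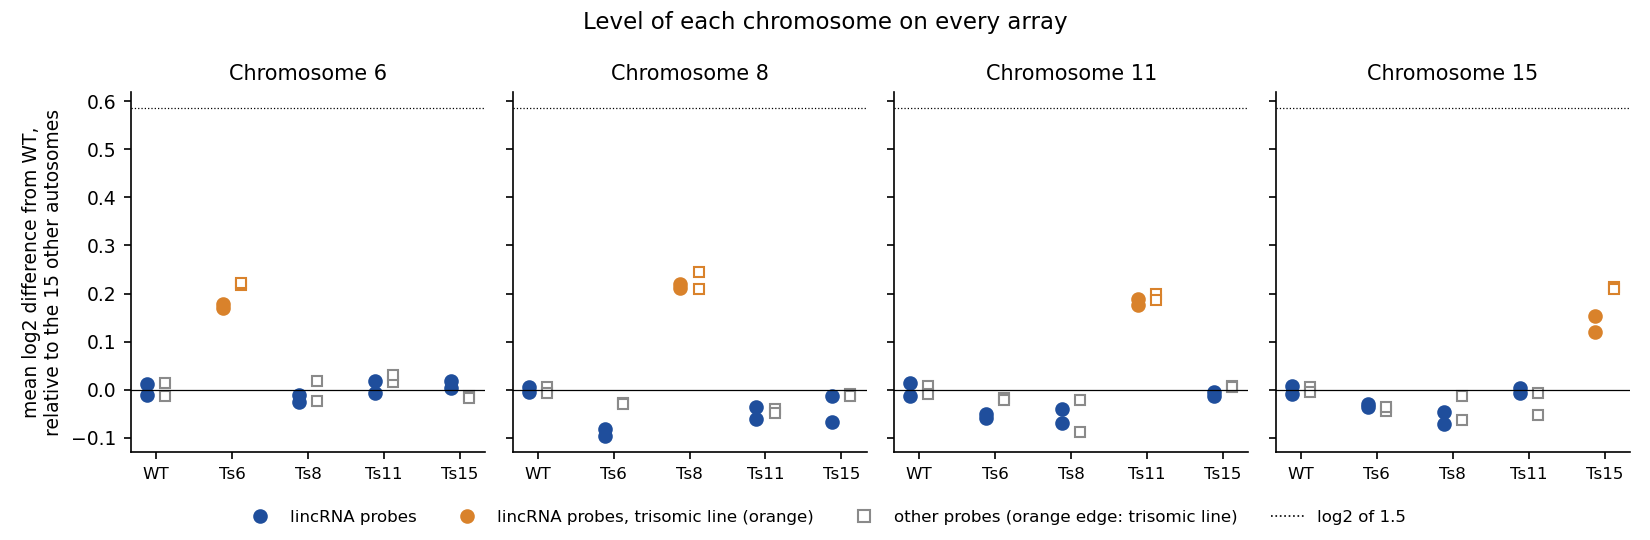
Mean log2 difference from WT of each chromosome's probes on all 10 arrays, relative to the same probe class on the 15 other autosomes; circles are lincRNA probes, squares other probes, orange marks the line trisomic for that chromosome and the dotted line is log2 of 1.5. The orange circles lie between 0.12 and 0.22, above those of every other array in each panel and below the dotted line.

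The distribution of single members moved with the mean. The median difference from WT of chromosome 6 lincRNAs was 0.10 in Ts6, with the middle 50% of members between -0.19 and 0.60. The medians were 0.16 on chromosome 8 (-0.077 to 0.49), 0.14 on chromosome 11 (-0.12 to 0.46) and 0.21 on chromosome 15 (-0.12 to 0.48), all relative to the lincRNAs of the other autosomes. Above 0 were 57.3%, 69.2%, 62.7% and 67.1% of the members of chromosomes 6, 8, 11 and 15, against 46.4%, 52.7%, 50.95% and 52.5% of lincRNA probes on the 15 other autosomes in the same lines. On chromosome 6 the upper part of the distribution was wide in both sets: 25.3% of members exceeded log2 of 1.5 in Ts6, and so did 16.5% of the lincRNAs of autosomes that Ts6 has not gained. In the other lines these shares were 20.35% against 8.39% (chromosome 8), 15.7% against 8.495% (chromosome 11) and 17.4% against 11.6% (chromosome 15).

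**Figure D2:**
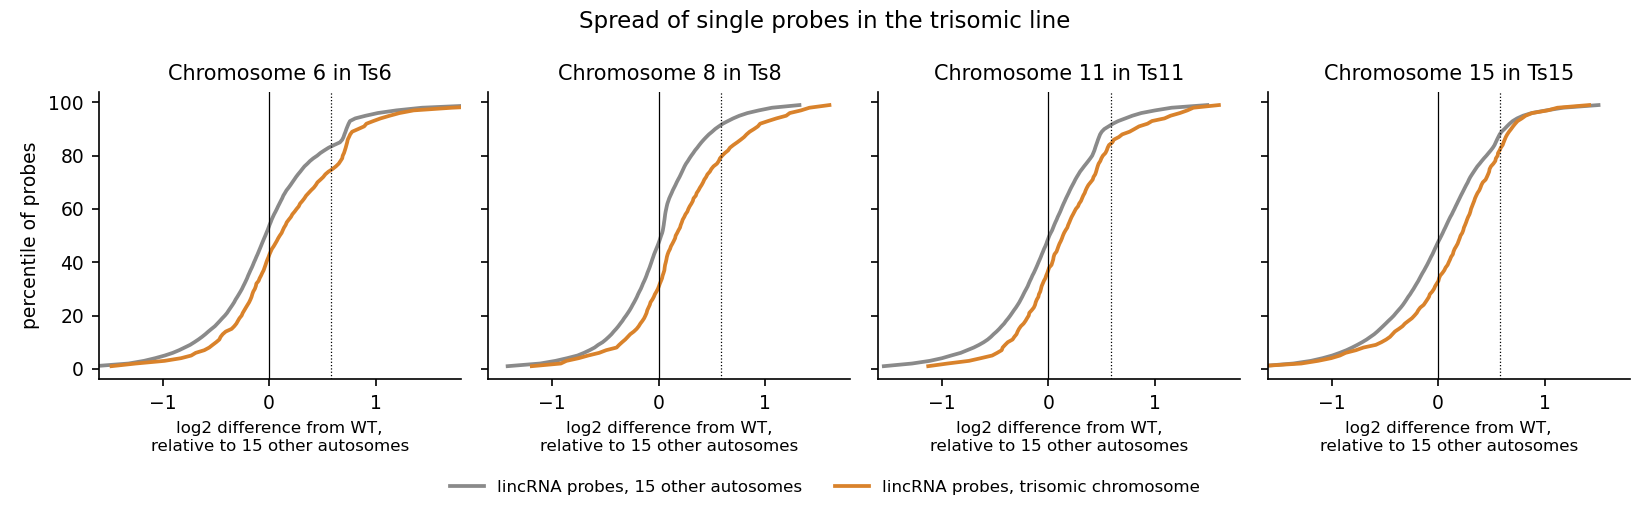
Percentiles of the log2 difference from WT over the lincRNA probes of each trisomic chromosome in its own line and over those of the 15 other autosomes in that line, both relative to the mean of the latter; the dotted line is log2 of 1.5. The member curves run to the right of the other curve at the median, by an amount that differs between chromosomes.

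How bright a lincRNA is bears on these values, since a dim probe reports background as well as RNA. Members were therefore divided into 3 strata of like size by their processed signal in WT, at 80.9 and 420 units: 16.8% of the probe measurements in the low stratum were well above background, 94.1% in the middle and 99.99% in the high one. Each stratum was set against lincRNAs of the 15 other autosomes in the same range. On chromosome 8 the shift was 0.16 ± 0.038, 0.21 ± 0.0042 and 0.28 ± 0.023 (SD, n = 2 arrays) from the low to the high stratum, and on chromosome 11 it was 0.12 ± 0.051, 0.17 ± 0.057 and 0.29 ± 0.031. On these 2 chromosomes both arrays of the line read higher in the high stratum than either did in the low one. The order depended on the reference: against lincRNAs of all strata together the low, middle and high values were 0.22, 0.18 and 0.24 on chromosome 8 and 0.25, 0.076 and 0.25 on chromosome 11. WT noise enters both the stratum and the difference, and only a reference inside the same stratum shares it. The order against all strata together thus cannot be told apart from that noise. Chromosome 6 lincRNAs showed no such order against their own strata, with 0.17 ± 0.017, 0.18 ± 0.019 and 0.18 ± 0.019. Against lincRNAs of all strata together, the low stratum of chromosome 6 was by far the highest, as given in the last section. Chromosome 15 lincRNAs were at 0.059 ± 0.013 in the low, 0.22 ± 0.058 in the middle and 0.15 ± 0.0060 in the high stratum. In the high stratum no chromosome's lincRNAs reached a mean of 0.58.

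LincRNA and other probes of the same chromosome were then compared at matched WT signal. Without matching, the other probes were shifted by 0.22, 0.23, 0.19 and 0.21 on chromosomes 6, 8, 11 and 15, numerically above the lincRNAs in each case; on chromosome 8 the gap was within the SD of the arrays (0.024 for the other probes). Weighted to the lincRNAs' own brightness, the lincRNA shift minus that of the other probes was -0.0070 ± 0.0085 on chromosome 6, 0.0048 ± 0.017 on chromosome 8, 0.012 ± 0.011 on chromosome 11 and -0.032 ± 0.019 on chromosome 15 (SD, n = 2). On chromosomes 6 and 8 the difference was smaller than the spread between the 2 arrays, and on chromosome 11 it was of its size. The chromosome 15 difference was below 0 on both Ts15 arrays and larger than their spread, and with 10 strata in place of 3 it was -0.054. In the high stratum of chromosome 15 the lincRNAs stood at 0.15 and the other probes at 0.27, and on chromosome 6 at 0.18 and 0.25; on chromosome 11 they stood at 0.29 and 0.26.

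**Figure D3:**
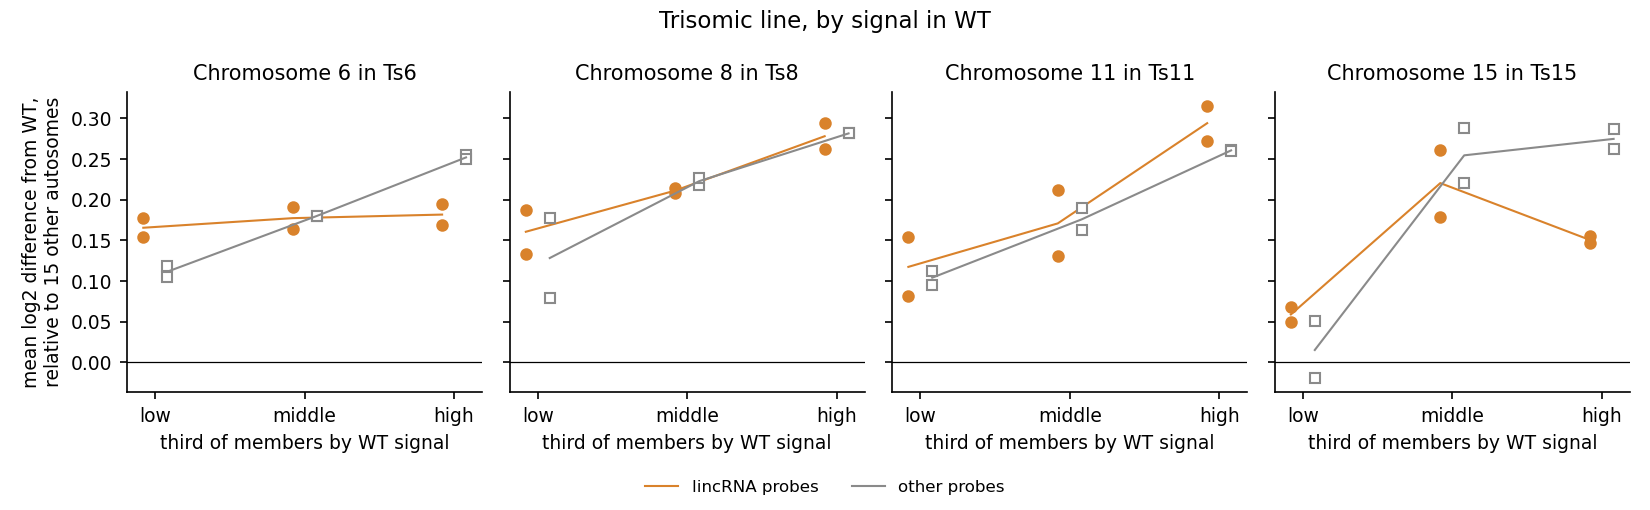
Shift of lincRNA probes (filled) and other probes (open) in 3 strata of WT signal, in the line trisomic for each chromosome; points are the 2 arrays, lines join their means, in log2 relative to probes of the same class and range on the 15 other autosomes. On chromosomes 8 and 11 both classes rise from the low to the high stratum, and on chromosomes 6 and 15 the lincRNAs end below the other probes.

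Single probes were tested with limma over the 43055 probes that some group had well above background on each of its arrays, with Benjamini-Hochberg adjustment and a call at an adjusted p under 0.05, two-sided. Of the members, 2558 passed this filter: 712 on chromosome 6, 783 on chromosome 8, 572 on chromosome 11 and 491 on chromosome 15. Only 31 of them passed through the trisomic line alone (9, 17, 4 and 1, of which 3, 5, 4 and 0 were called higher), 1996 were above background on all 10 arrays and 538 of all members on none.

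In Ts6 against WT, 74 of the 712 chromosome 6 members rose (10.4%) and 10 fell (1.40%), while over all probes tested 4.25% were called higher and 4.33% lower. In Ts8, 79 of 783 chromosome 8 members rose (10.1%) and 1 fell (0.128%), with 1.72% and 1.25% of all probes called. In Ts11, 48 of 572 chromosome 11 members rose (8.39%), against 3.46% of all probes; 0 were called lower by limma, with 15 lower at an unadjusted p under 0.05, against 3.5% of all probes called lower. In Ts15, 15 of 491 chromosome 15 members rose (3.05%) and 28 fell (5.70%), with 2.08% and 5.05% of all probes called, so both shares lay near those of all probes. LincRNA probes of the 15 other autosomes were called higher at 3.63%, 1.85%, 2.49% and 1.22% in Ts6, Ts8, Ts11 and Ts15. The other probes of the same chromosomes were called higher at 15.5%, 8.07%, 12.5% and 10.5%.

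These counts rest on few arrays. When an array of WT or of the own line was left out, calls over all probes tested moved in the same direction as those of the members. Without Ts8 replicate 2 only 1 chromosome 8 member was called higher, without WT replicate 1 there were 23 and without WT replicate 2 there were 19, whereas without Ts8 replicate 1 there were 108. For chromosome 6 the count was 38 and 32 without WT replicates 1 and 2, and 13 and 31 without Ts6 replicates 1 and 2. For chromosome 11 it was 23 and 13 without WT replicates 1 and 2, and 26 and 18 without Ts11 replicates 1 and 2, and for chromosome 15 between 3 and 5 without any one of the 4 arrays concerned. Testing every probe with no filter gave 22, 26 and 4 on chromosomes 8, 11 and 15, and fitting only the 2 groups' arrays gave 0, 0 and 2, where 231, 121 and 67 members were higher at an unadjusted p under 0.05. In Ts15 the split of higher and lower calls moved with the scaling, from 15 and 28 to 19 and 20 after quantile normalization, 15 and 15 with normexp background and 22 and 20 in the deposited series table.

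Bright members made up most of the calls. Of the chromosome 6 lincRNAs called higher, 46 of 347 tested were in the high stratum, 21 of 293 in the middle and 7 of 72 in the low one; of lincRNA probes on the 15 other autosomes, 2.82%, 3.42% and 7.64% were called higher in the same strata, so the low stratum lay near that reference. On chromosome 8 the counts were 54 of 369, 19 of 337 and 6 of 77, and on chromosome 11 they were 30 of 216, 12 of 279 and 6 of 77, where the reference shares were 1.68%, 1.96% and 2.15% in Ts8 and 2.29%, 2.68% and 2.64% in Ts11. The standard error of a probe was smaller where it was bright, with a median of 0.16 in the high and 0.31 in the low stratum of chromosome 8. Of chromosome 15, 9 of 207, 5 of 228 and 1 of 56 were called higher, beside 1.39%, 0.98% and 1.47% of the reference.

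Each line was also set against the mean of the other 3 trisomic lines, a contrast with no WT array in it. There 150 chromosome 6 members were higher in Ts6 (21.1%) and 21 lower (2.95%), beside 6.7% and 5.95% of all probes. In Ts8, 266 chromosome 8 members were higher (34.0%) and 2 lower (0.255%), beside 8.14% and 4.49%. In Ts11, 45 chromosome 11 members were higher (7.87%) and 1 lower (0.175%), beside 3.38% and 2.98%. In Ts15, 58 chromosome 15 members were higher (11.8%) and 66 lower (13.4%), beside 5.98% and 12.9%, and the split was 65 and 39 after quantile normalization. Without Ts8 replicate 2 the count for chromosome 8 was 43. Without replicate 1 or 2 of the line it was 26 or 57 for chromosome 6, 12 in both cases for chromosome 11, and 16 or 14 for chromosome 15. For chromosome 11 it was also 16 or 22 without Ts6 replicate 1 or 2, and 29 or 24 without Ts15 replicate 1 or 2.

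Both arrays of the own line were above the other 8 arrays for 159 members of chromosome 6 (22.3%), 261 of chromosome 8 (33.3%), 79 of chromosome 11 (13.8%) and 42 of chromosome 15 (8.55%). Over all probes tested, the same held for 8.54%, 8.68%, 6% and 7.09% in Ts6, Ts8, Ts11 and Ts15. Among lincRNA probes of the 15 other autosomes it held for 7.96%, 9.99%, 4.21% and 3.98%.

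Most intervals have several probes on a strand, which read different places of what is annotated as 1 transcript. Over interval strands, at least 1 probe rose against WT on 38 of 240 of chromosome 6, 43 of 272 of chromosome 8, 27 of 175 of chromosome 11 and 13 of 179 of chromosome 15. On the 15 other autosomes the counts in the same lines were 220, 122, 147 and 77 of 3127 interval strands. Where at least 3 probes of a strand were tested, all of them were above the reference on 24% of 125 strands of chromosome 6, 49.65% of 141 of chromosome 8, 27.9% of 104 of chromosome 11 and 47.5% of 80 of chromosome 15. On the 15 other autosomes this was so for 15.2%, 22.0%, 17.45% and 21.6% of 1570 strands in Ts6, Ts8, Ts11 and Ts15. Probes of a strand differed among themselves by a median SD of 0.22, 0.19, 0.25 and 0.22 (log2). The annotated intervals overlap: the 945 interval strands merge into 688, and probes of overlapping intervals can read the same RNA.

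Every tested probe was called higher in the own line on 13 interval strands with at least 3 tested probes, 1 of chromosome 6, 9 of chromosome 8 and 3 of chromosome 11. They were picked for these calls, so their differences are a description. How many strands of the autosomes gained in no line were called in full is not given, so the 13 have no background beside them. The chromosome 6 interval, chr6:54591416-54597566 forward, overlaps the annotated gene Plekha8, a lipid transfer protein gene, on the same strand. Its 5 probes had a mean level of -0.034 and -0.069 in WT and 0.69 and 0.69 in Ts6. In the other lines the mean was 0.0067 and -0.10 (Ts8), -0.12 and -0.17 (Ts11) and -0.44 and -0.30 (Ts15). Both Ts6 arrays were above the other 8, and the probes rose by 0.64 to 0.81 with adjusted p of 0.0039 to 0.019. The probe of Plekha8 rose by 0.80 ± 0.10 (SE, adjusted p = 0.0047); whether the lincRNA probes read the same transcript was not tested. Without Ts6 replicate 1, 2 of the 5 probes were called, and without WT replicate 2, 3 were.

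On chromosome 8, chr8:108153471-108159346 reverse overlaps Gm5914 on the same strand. Mean levels of its 5 probes were -3.24 and -3.32 in WT and -2.05 and -1.17 in Ts8. The 6 arrays of the other lines lay between -3.61 and -2.93, below both Ts8 arrays. The probes rose by 1.49 to 1.795 (adjusted p 0.031 to 0.037), and the Gm5914 probe by 0.97 (adjusted p = 0.038). Ts8 replicate 2 was the higher of the 2 arrays; without it none of the 5 was called (adjusted p 0.093 to 0.13, mean rise 1.23), and without WT replicate 1 or 2 none was either.

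The near-identical probes shown above belong to chr8:19678750-20038750 and chr8:71938275-72113375, both forward. The 5 probes of the first had mean levels of 1.998 and 2.28 in WT, 3.03 and 3.15 in Ts8, and 2.13 to 2.64 in the other lines. The 5 probes of the second had 1.11 and 1.37 in WT, 2.18 and 2.30 in Ts8, and 1.25 to 1.69 in the other lines. At both, the Ts8 arrays were above all others, by 0.82 to 1.10 and 0.84 to 1.16 against WT and with 5 of 5 probes called against the other 3 lines too. The Ts6 and Ts11 arrays also lay above both WT arrays at both. Mean rises were 0.46 and 0.42 in Ts6, with 1 and 2 probes called, and 0.31 and 0.23 in Ts11, with none called. Another 4 of the 13 strands lie inside these intervals: chr8:19792940-19798868 forward (0.78 to 1.01), chr8:19800084-19800790 reverse (0.94 to 1.08), chr8:19887285-19889397 reverse (1.30 to 1.34) and chr8:72105642-72105922 reverse (0.94 to 1.11). In Ts6 the mean rises of these 4 strands were 0.36 to 0.67, with no probe called. The nearest gene to the second interval, the zinc-finger gene Zfp868, differed by 1.27 (adjusted p = 0.058). The first interval overlaps 2610005L07Rik on the opposite strand, whose probe differed by 0.078 in Ts8 (adjusted p = 0.70). The gene nearest to the listed strands inside the first interval, 6820431F20Rik, differed by 0.41 (adjusted p = 0.096). Without Ts8 replicate 2 no probe of these 6 strands was called, without WT replicate 1 between 0 and 3 per strand were, and without WT replicate 2 between 0 and 4.

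The remaining 2 chromosome 8 strands, chr8:89996710-90049453 and chr8:90048940-90049461, both forward, overlap each other; the first also overlaps the probe of Gm2694, which is 52.1 kb from the second. They were higher than WT in all 4 trisomic lines and not in Ts8 alone. Mean rises over the 3 probes of the second were 1.39 in Ts8, 1.07 in Ts6, 0.83 in Ts11 and 0.51 in Ts15. The probe A_30_P01024798 read 0.76 and 0.63 in WT against 1.98 and 2.08 in Ts8; Ts6 had 1.78 and 1.66, Ts11 had 1.54 and 1.52 and Ts15 had 1.29 and 1.23. Its WT arrays were thus below all 8 trisomic arrays, and its Ts8 arrays above the other 8. It rose by 1.33 ± 0.11 in Ts8 against WT (adjusted p = 0.0073) and was 0.52 above the mean of the other 3 lines (adjusted p = 0.013). Without Ts8 replicate 2, 0 and 1 probes of the 2 strands were called in Ts8. The comparisons of the 4 lines share the WT arrays. In all, 4 members were called higher in each of the 4 lines. Of these, A_30_P01024798, A_30_P01032532 and A_30_P01024770 belong to these 2 intervals. The other, A_30_P01022121 of chr8:42462791-42466106 reverse, rose by 1.53 in Ts8 and by 1.09 to 1.36 in the other lines. It was above background on only 1 of the 2 WT arrays. The share of all probes called higher in all 4 lines is not given, so the 4 have no background beside them.

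All 5 probes of chr11:33414450-33450750 reverse rose in Ts11. The interval ends 0.169 kb from Gabrp, a GABA-A receptor subunit gene on the same strand, whose own probe did not pass (-0.25, adjusted p = 0.35). Mean levels were -4.75 and -4.70 in WT and -3.41 and -2.71 in Ts11; Ts6 had -3.65 and -3.84, Ts8 -4.28 and -4.51, and Ts15 -4.79 and -4.92. The Ts11 arrays were the highest, but Ts6 was also above WT, by a mean of 0.98 with 2 probes called. Of the 5 probes, A_30_P01028398 was above background on no WT array and passed the filter only through Ts11, so its call is no support. Among probes above background on at least 6 arrays, 3 of the 5 were left, all called, with a mean rise of 1.03 in place of 1.67. Without WT replicate 1 or Ts11 replicate 2 none of the 5 was called.

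The 3 probes of chr11:51854060-51903278 forward, 2.39 kb from the kinase gene Cdkl3, rose in Ts11 by 1.34 to 1.54. The probe A_30_P01021790 had levels of -1.11 and -1.23 in WT and 0.0059 and 0.42 in Ts11, and of -0.47 and 0.33 in Ts8. Its Ts8 arrays thus overlapped those of Ts11. Ts8 was above WT by a mean of 1.18 with no probe called, and no probe was called between Ts11 and the other 3 lines. Cdkl3 itself rose by 0.63 (adjusted p = 0.043). Without WT replicate 1, WT replicate 2 or Ts11 replicate 2 none of the 3 was called.

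At chr11:87872568-87880978 reverse, 5.41 kb from the splicing factor gene Srsf1 on the opposite strand, all 4 probes rose by 0.91 to 1.30 in Ts11. The same 4 rose in Ts6, by a mean of 1.42, and 3 of them in Ts15, by a mean of 0.87, and none was called between Ts11 and the other 3 lines. Mean levels were -2.90 and -3.12 in WT, -1.78 and -1.996 in Ts11, -1.61 and -1.57 in Ts6, -1.95 and -2.34 in Ts15, and -2.70 and -2.43 in Ts8. The Ts6 arrays, not those of the line with the extra chromosome 11, were the highest. None of the 4 was called without WT replicate 2 or Ts11 replicate 1.

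**Figure D4:**
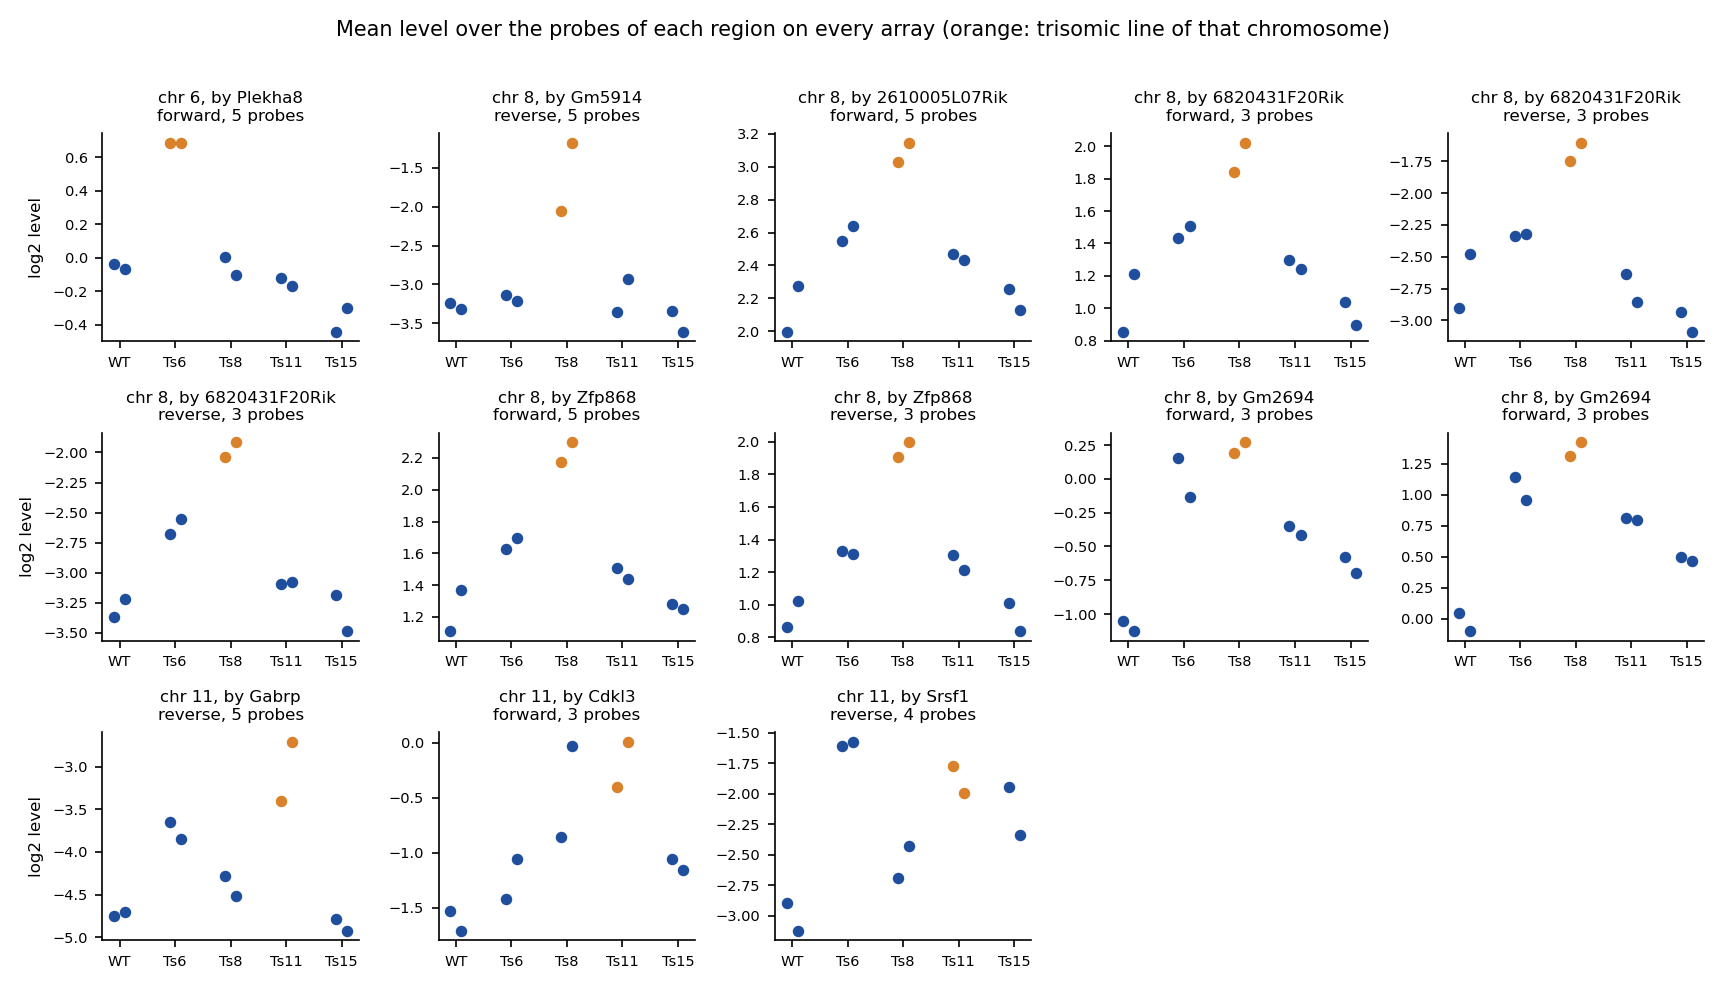
Mean log2 level over the probes of each of the 13 interval strands in which every tested probe was called higher in the own line, on all 10 arrays, with 1 panel per strand; orange marks the line trisomic for that chromosome and each panel has its own scale. In the chromosome 6 and chromosome 8 panels the 2 orange points lie above all others. In every chromosome 8 and chromosome 11 panel both Ts6 points also lie above those of WT, and the last 2 chromosome 8 panels show every trisomic line above WT.

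The largest rises and falls of single members were taken by a fixed rule, from those above background on at least 1 array of both groups and with arrays that do not overlap between them. Of the members tested, 291 of chromosome 6 (40.9%), 431 of chromosome 8 (55%), 237 of chromosome 11 (41.4%) and 144 of chromosome 15 (29.3%) had both arrays of the own line above both WT arrays, beside 27.6%, 30%, 26.7% and 24.6% of all probes. Below both WT arrays were 141 (19.8%), 54 (6.9%), 62 (10.8%) and 124 (25.3%), beside 30.6%, 24.3%, 26.6% and 32.6%. On chromosome 6, A_30_P01030412 of chr6:37630192-37682692 forward, 112 kb from the steroid reductase gene Akr1d1, had levels of -6.41 and -6.35 in WT and -4.31 and -4.68 in Ts6. Its levels in the other lines were -6.77 and -6.75 (Ts8), -6.70 and -7.05 (Ts11), and -7.12 and -7.32 (Ts15), and only the WT and Ts6 arrays were well above background. It rose by 1.89 ± 0.17 (SE, adjusted p = 0.0013), and it was the only tested probe of 5 on its strand. A_30_P01032674 of chr6:42659063-42660071 reverse rose by 1.62 ± 0.13 (adjusted p = 8.0e-04), from -5.74 and -5.58 to -4.11 and -3.96. The other 6 arrays lay between -5.17 and -4.92, between the WT and the Ts6 arrays. Its 2 companion probes were not called, and the lowest of the 3 differences was 0.21. A_30_P01027963, 1.93 kb from Ints13, a gene for an Integrator complex subunit, rose by 1.41, and A_30_P01028168 of chr6:108556270-108573161 forward by 1.38 with 4 of its strand's 7 tested probes called.

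For chromosome 6 members not above background on either WT array only a lower bound can be given, since the WT level is not measured. A_30_P01025946 of chr6:67016874-67030651 forward, within E230016M11Rik, was at -3.90 and -4.08 in Ts6 and was not well above background on the other 8 arrays. It was at least 6.08-fold higher in Ts6 than WT, while the lowest of the 3 probes on that strand differed by -0.92. A_30_P01030981, 71.1 kb from Rassf8, was at least 4.08-fold higher. Both passed the filter on low signal only through Ts6, so their calls are no support for the difference, and the same holds for the members given below as at least some fold higher in Ts8 or Ts11.

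On chromosome 6, 10 of 712 tested members (1.40%) fell although the chromosome was gained, beside 4.33% of all probes. A_30_P01031994 of chr6:82608223-82669023 reverse, 6.03 kb from Hk2, which encodes a hexokinase, went from -3.58 and -3.27 in WT to -5.25 and -4.95 in Ts6, a fall of 1.68 ± 0.15 on the log2 scale (adjusted p = 0.0014). It was -4.20 and -4.24 in Ts8 and -4.36 and -4.54 in Ts15, and higher than WT in Ts11 (-2.90 and -2.98). A second probe of that interval, A_30_P01033193, was at least 3.32-fold lower in Ts6, where it was not well above background, and the other tested probe differed by 0.041. The probe of Hk2 differed by 0.32 (adjusted p = 0.35). A_30_P01028047 fell by 1.64 and A_30_P01028500 by 1.59 (adjusted p = 0.0495). The 10 named calls of chromosome 6 all held without WT replicate 1; 8 held without WT replicate 2 or without Ts6 replicate 1 and 9 without Ts6 replicate 2, with adjusted p of 0.057 to 0.26 for those lost.

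The largest chromosome 8 rises were those of probes of the Gm5914 interval, A_30_P01024436 by 1.795 ± 0.31 (adjusted p = 0.037) and A_30_P01019962 by 1.77, and of the second sequence pair shown above. A_30_P01028647 had levels of -5.56 and -5.77 in WT and -4.16 and -3.67 in Ts8, and A_30_P01030048 had -5.48 and -5.64 in WT and -4.13 and -3.54 in Ts8. The other 6 arrays of both lay from -5.57 to -4.54, below both Ts8 arrays. They rose by 1.75 ± 0.21 and 1.72 ± 0.21 (adjusted p = 0.019 for each), at intervals of opposite strands that cannot be told apart by probes this alike. Gm3643, the gene nearest to the first, rose by 1.41 (adjusted p = 0.016).

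At least 2.53-fold higher in Ts8 was A_30_P01028617 of chr8:19759348-19759959 reverse, and at least 2.12-fold higher was A_30_P01019785 of chr8:72077827-72109034 reverse. They lie within the 2 loci whose probes are near-copies. The only chromosome 8 member called lower was A_30_P01025676 of chr8:10886200-10905925 reverse, at -2.14 and -2.12 in WT and -2.79 and -2.93 in Ts8, a fall of 0.73 ± 0.11 (adjusted p = 0.029). The other 2 tested probes of its strand were not called, and the strand as a whole differed by 0.059. Of the 11 named chromosome 8 calls, 1 held without Ts8 replicate 2 (the others had adjusted p of 0.052 to 0.18), 6 without WT replicate 1, 4 without WT replicate 2 and 10 without Ts8 replicate 1.

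On chromosome 11, A_30_P01022762 of chr11:97305584-97309994 forward had levels of -0.43 and -0.32 in WT and 1.42 and 1.07 in Ts11. It was 0.08 and 0.31 in Ts6, 0.31 and 0.40 in Ts8, and 0.83 and 0.68 in Ts15, so all 8 trisomic arrays were above WT and the Ts11 arrays above the rest. It rose by 1.62 ± 0.15 in Ts11 (adjusted p = 0.0035) and differed by 0.81 from the other 3 lines (adjusted p = 0.014), while the other tested probe of its strand differed by 0.27. The next rises were A_30_P01030056 of the Cdkl3 interval (1.54), A_30_P01028974 of chr11:116562925-116574575 reverse (1.49 ± 0.29) and A_30_P01022597 of chr11:87872568-87880978 forward (1.47 ± 0.25). The last reads the strand opposite to the 4 risen probes near Srsf1, and it was higher in Ts6 than in Ts11, by 1.75 against 1.47 relative to WT.

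A_30_P01028398 near Gabrp, not above background in WT, was at least 3.15-fold higher in Ts11, where its arrays read -5.96 and -3.91; 1 Ts6 array, at -5.14, was also well above background. A_30_P01025994, 16.5 kb from Epop, which encodes a partner of Polycomb repressive complex in ES cells, was at least 2.25-fold higher, as 1 called probe of 8 tested on its strand. Of the 6 named chromosome 11 calls, 3 held without WT replicate 1, 2 without WT replicate 2, 4 without Ts11 replicate 1 and 2 without Ts11 replicate 2, with adjusted p of 0.057 to 0.13 for those lost.

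On chromosome 15, A_30_P01032038 of chr15:96597330-96663683 forward rose most in Ts15, from -5.57 and -5.42 to -3.73 and -4.15. Its levels were -5.06 and -5.31 in Ts6, -4.84 and -4.53 in Ts8, and -4.80 and -4.73 in Ts11, all between the WT and the Ts15 arrays. The rise was 1.55 ± 0.18 (adjusted p = 0.0050), and the least changed of its 3 probes differed by 0.068. A_30_P01026487, 0.954 kb from Khdrbs3, which encodes an RNA-binding protein, rose by 1.03, A_30_P01024828 by 0.94 and A_30_P01023087 by 0.89, the last with 2 of 3 probes called.

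On chromosome 15, 28 of 491 tested members fell, a share near that of all probes (5.05%). By stratum from low to high, 4 of 56, 17 of 228 and 7 of 207 fell. Of lincRNA probes on the 15 other autosomes, 8.42%, 10.3% and 5.21% did so in the same strata. A_30_P01029978 of chr15:102994998-102995947 reverse, 1.16 kb from the uracil DNA glycosylase gene Smug1, went from -4.52 and -4.60 in WT to -5.99 and -5.74 in Ts15, while the other 6 arrays lay between -4.90 and -4.32. It fell by 1.31 ± 0.14 (adjusted p = 0.0040). A_30_P01024084 of chr15:97674015-97674423 reverse, 10.71 kb from the vitamin D receptor gene Vdr, fell by 1.20 ± 0.10 (adjusted p = 0.0028), from -0.61 and -0.68 to -1.89 and -1.81. The other 6 arrays lay between -1.05 and -0.63, so the Ts15 arrays stood apart below. A_30_P01025721, 12.3 kb from Zfr, fell by 1.23, and A_30_P01032358 of chr15:102920547-102933472 forward was at least 2.52-fold lower. In all 4 cases Ts15 was also called lower than the mean of the other 3 lines, and other probes of the strand were not called. The Ts15 arrays alone were on their slide. Of the 8 named chromosome 15 calls, 6 held without any 1 of the 4 arrays, with adjusted p of 0.058 to 0.12 for those lost.

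The 3 members with the highest WT level on each chromosome, 12 in all, differed from WT by -0.28 to 0.18 in the own line, and none was called. In the high stratum 46 of 347, 54 of 369, 30 of 216 and 9 of 207 members were called higher on chromosomes 6, 8, 11 and 15. With 12 members, no call cannot be told apart from these shares. A_30_P01025640 of chr6:47915313-47974138 forward, beside the zinc-finger gene Zfp956, was 5.69 and 5.42 in WT and 5.51 and 5.59 in Ts6. On chromosome 15, A_30_P01028060 of chr15:59059450-59070576 reverse was 5.21 and 5.46 in WT and 5.48 and 5.55 in Ts15. At both, the 2 arrays of the trisomic line lay within the range of the other 8 arrays.

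The base composition of the probe, which the choice of members did not use, moved with the shift. This split was chosen after seeing values. Members with at most 40% G and C bases were shifted by 0.27 ± 0.0018 on chromosome 6 in Ts6, those above 40% and up to 45% by 0.18 ± 0.015 and those with over 45% by 0.075 ± 0.0054 (SD, n = 2 arrays). On chromosome 8 the shifts were 0.33 ± 0.050, 0.21 ± 0.0096 and 0.12 ± 0.038, on chromosome 11 they were 0.26 ± 0.054, 0.18 ± 0.013 and 0.12 ± 0.0090, and on chromosome 15 they were 0.20 ± 0.046, 0.18 ± 0.017 and 0.026 ± 0.059. On all 4 chromosomes the lowest class was above the highest on both arrays. Each class was set against lincRNAs of the 15 other autosomes in the same class.

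Signal did not run the same way as the shift: on chromosome 6, 54.0% of the measurements in the class with least G and C were above background and 87.9% in the class with most. Among the brightest of 3 strata of members by their level in the other lines, the shifts of the 3 classes were 0.28, 0.23 and 0.058 on chromosome 6, 0.40, 0.34 and 0.16 on chromosome 8, 0.39, 0.335 and 0.23 on chromosome 11, and 0.23, 0.23 and 0.045 on chromosome 15. Other probes of that brightness had a smaller range over the classes on each chromosome: 0.31, 0.28 and 0.25 on chromosome 8, 0.28, 0.24 and 0.25 on chromosome 11, and 0.29, 0.28 and 0.245 on chromosome 15. On chromosome 6 they had 0.27, 0.30 and 0.14, the highest in the middle class. In the middle of these strata the other probes also fell with G and C on 3 chromosomes. They had 0.22, 0.21 and 0.099 on chromosome 6, 0.35, 0.24 and 0.12 on chromosome 8, and 0.33, 0.28 and 0.14 on chromosome 15. On chromosome 11 they had 0.15, 0.12 and 0.21. The lincRNAs there had 0.18, 0.24 and 0.096 on chromosome 6, and 0.40, 0.16 and 0.0955 on chromosome 8. On chromosomes 11 and 15 they had 0.20, 0.19 and 0.080, and 0.24, 0.24 and 0.076. The part of base composition in the lincRNA shift was not tested.

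**Figure D5:**
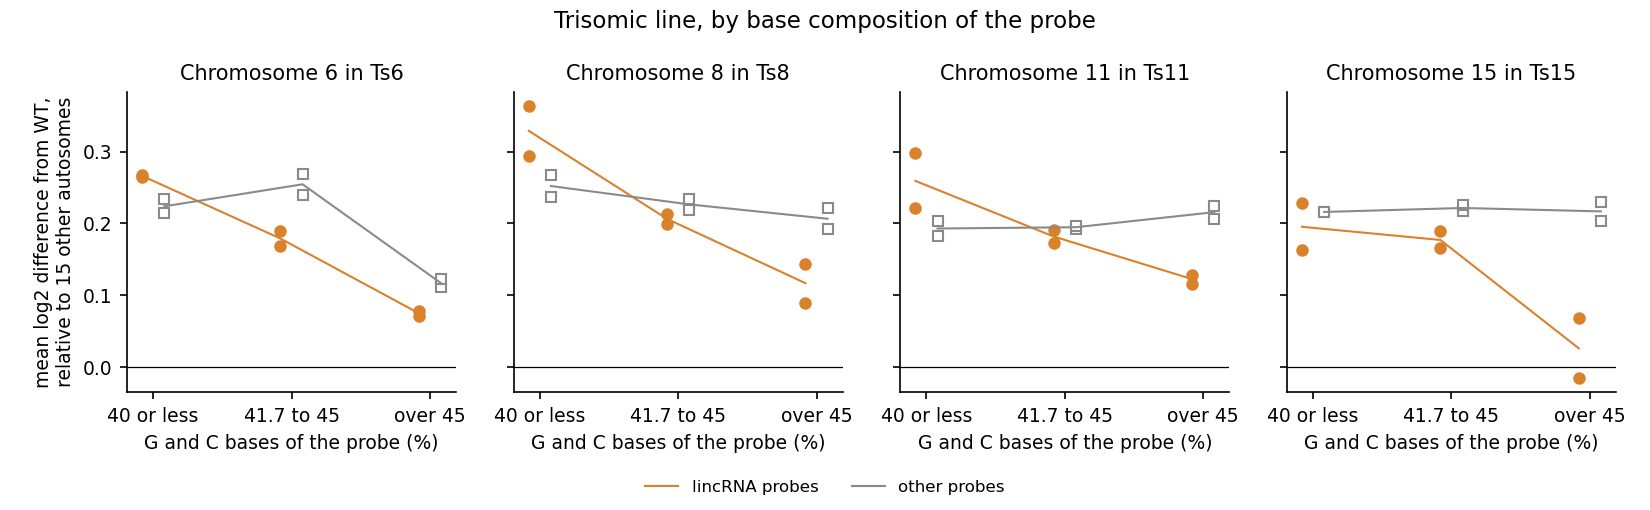
Shift in the trisomic line by the share of G and C bases in the probe, for lincRNA probes (filled) and other probes (open), as log2 relative to probes of the same class and composition on the 15 other autosomes; points are the 2 arrays and lines join their means. LincRNA probes fall from left to right on all 4 chromosomes, from 0.20 to 0.33 at 40% or less to 0.026 to 0.12 above 45%.

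On 228 intervals both strands carry probes. There the strand with the lower level in the other lines was shifted more than the brighter one on each chromosome, by 0.24 against 0.12 on chromosome 6, 0.24 against 0.19 on chromosome 8, 0.22 against 0.15 on chromosome 11 and 0.17 against 0.13 on chromosome 15. These differences carry no test. Both strands were set against all lincRNAs of the 15 other autosomes and not against those of like signal. A difference between the strands thus cannot be told apart from one between dim and bright probes in general. Forward and reverse probes had no common order, with 0.13 and 0.21 on chromosome 6 and 0.16 and 0.11 on chromosome 15.

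Nearness to another gene gave no order shared by the 4 chromosomes. LincRNA intervals that overlap a gene probe were shifted by 0.32 on chromosome 8, those within 10 kb by 0.29 and those farther away by 0.13. On chromosome 11 the overlapping ones were lowest, at 0.045 against 0.21 and 0.22. Chromosome 6 had 0.21, 0.17 and 0.16, and chromosome 15 had 0.22, 0.093 and 0.13.

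Each chromosome's members were also put in 4 bins of like size by position, and all 16 means were above 0. On chromosome 8 the bins had means of 0.30, 0.14, 0.31 and 0.11, on chromosome 6 they had 0.18, 0.17, 0.13 and 0.21, and on chromosome 11 they had 0.24, 0.15, 0.19 and 0.15. On chromosome 15 the bin from 78.4 to 90.1 Mb, was lowest at 0.049 (0.059 and 0.040 on the 2 arrays), and the others had 0.17, 0.20 and 0.12.

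Named noncoding RNAs are mostly outside the lincRNA class of the array and were looked up as a list of 41, of which 28 were found and 25 tested. Each was read from 1 probe. Tug1, Pvt1 and Meg3 had 3 probes each on the array, and H19, Mirg and Snhg11 had 2 each. The values of their other probes are not given. Against WT, limma called 0 higher and 4 lower for Ts6, 0 and 1 for Ts8, 3 and 2 for Ts11, and 1 and 0 for Ts15, with median differences of 0.032, 0.24, 0.078 and 0.15. In the same order of lines, 4.25%, 1.72%, 3.46% and 2.08% of all probes were called higher, and 4.33%, 1.25%, 3.5% and 5.05% lower. At an unadjusted p under 0.05 the counts for the list were 2 and 6, 8 and 1, 4 and 6, and 8 and 3. Of those on a trisomic chromosome, Mir22hg, the host transcript of a microRNA on chromosome 11, was 0.068 and 0.23 in WT and 1.30 and 1.46 in Ts11. The other 6 arrays read from 0.11 to 0.95, below both Ts11 arrays, and the rise was 1.23 ± 0.25 (adjusted p = 0.031). Tug1, a conserved nuclear lincRNA of chromosome 11, differed by 0.037 in Ts11. Pvt1, the neighbour of Myc on chromosome 15, had levels of 0.35 and 0.069 in WT and 0.73 and 0.75 in Ts15, and its difference of 0.53 ± 0.13 did not pass (adjusted p = 0.053).

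Hoxa11os, the antisense transcript of Hoxa11 on chromosome 6, fell by 0.78 ± 0.12 in Ts6 (adjusted p = 0.0089) although that chromosome is gained there, from -2.19 and -2.06 to -2.95 and -2.85. It also fell by 0.76 in Ts11. The imprinted Peg13 of chromosome 15 differed by -0.38 in Ts15 (adjusted p = 0.20), and Dlx6os1 of chromosome 6 was above background on 2 arrays and was not tested. Off these chromosomes, Neat1 rose by 0.49 and Snhg11 by 1.10 in Ts11, while Malat1 rose by 0.82 in Ts15 (adjusted p = 0.046) and differed by nearly as much in the other lines, by 0.72 in Ts6, 0.81 in Ts8 and 0.79 in Ts11 (adjusted p 0.063, 0.067 and 0.053). Meg3 fell by 0.95 and H19 by 0.69 in Ts6, and H19 by 0.85 in Ts8. Mirg, a transcript of the imprinted domain that also holds Meg3, fell by 0.86 in Ts6 and by 0.84 in Ts11.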

How the data were processed

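Per the file headers, the deposited intensity values came from 1-colour Agilent mouse arrays read with Agilent Feature Extraction 10.7.3.1 on mm9 annotation, with detrending on and background correction off; no normalization between arrays is recorded. The deposited series table held log2 values with the same SD on all arrays and served as an alternative; its centring is not recorded. The file of Ts15 replicate 2 holds 3 significant digits.

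Flagged spots were dropped, 1 member with them, and spots of a probe averaged. Shifts used all unflagged members, with lincRNAs of the 15 other autosomes as reference. Probes were tested by limma (version 3.58.1, under R 4.3.3) on all 10 arrays, each group with its own mean, after a check on simulated data. Bounds set a mean against the lowest signal well above background. Members and lists were chosen with earlier results of these data known. Named members were, per chromosome, the 4 largest rises, 3 largest falls, 2 largest bounds higher and 1 lower, the 3 brightest, and those called alike in all lines; fully called strands were picked after seeing values. Nearest genes are other probes of the file. Replicate numbers did not pair arrays (correlations of deviations -0.093 to 0.38).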

Additional observations from a re-analysis of the deposited data

Results flagged for a closer look

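Of the 47 members singled out by the rules above, 29 differed between their own line and the mean of the other 3 trisomic lines in limma's test of that difference (adjusted p under 0.05), 21 higher and 8 lower. The contrast has no WT array, but it shares the own line's arrays with the comparison by which members were chosen. For 6 of the 29 (A_30_P01030412, A_30_P01025946, A_30_P01030981, A_30_P01028617, A_30_P01019785 and A_30_P01025994) no array of the other 3 lines was well above background. For A_30_P01033193 and A_30_P01032358 no array of the own line was. The values of these 8 are fitted differences against an unmeasured level and not measured sizes. All of the 6 except A_30_P01030412 passed the filter on low signal only through the own line, so their tests support nothing.

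In Ts6 the differences (log2) were 2.46 for A_30_P01030412, 1.03 for A_30_P01032674, 0.66 for A_30_P01027963, 1.11 for A_30_P01028168, 3.36 for A_30_P01025946 and 3.17 for A_30_P01030981. The fallers A_30_P01031994, A_30_P01028047 and A_30_P01033193 differed by -1.23, -1.14 and -1.15. In Ts8 the differences were 1.74 for A_30_P01024436, 1.70 for A_30_P01019962, 1.09 for A_30_P01028647, 1.13 for A_30_P01030048, 2.22 for A_30_P01028617 and 1.20 for A_30_P01019785, and -0.55 for A_30_P01025676. Of the members called higher in all 4 lines, 3 were still highest in Ts8, by 0.51 (A_30_P01024770), 0.52 (A_30_P01024798) and 0.58 (A_30_P01032532).

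In Ts11 A_30_P01022762 differed by 0.81 and A_30_P01025994 by 1.04. In Ts15 the risers A_30_P01032038, A_30_P01026487, A_30_P01024828 and A_30_P01023087 differed by 0.94, 0.80, 0.55 and 0.48. The fallers A_30_P01029978, A_30_P01025721, A_30_P01024084 and A_30_P01032358 differed by -1.28, -1.17, -1.07 and -1.42.

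Chromosome means below 0 on both arrays of a line without the extra copy, opposite to the own line, were seen 9 times, and these differences were not tested. Chromosome 6 lincRNAs stood at -0.019 in Ts8, those of chromosome 8 at -0.089 in Ts6, -0.047 in Ts11 and -0.040 in Ts15, those of chromosome 11 at -0.054 in Ts6, -0.054 in Ts8 and -0.0085 in Ts15, and those of chromosome 15 at -0.032 in Ts6 and -0.059 in Ts8.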

How the results depend on the processing

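The mean shift of each chromosome kept its sign under every alternative tried, though on chromosome 15 it was only 0.013 against non-lincRNA probes. For chromosomes 6, 8, 11 and 15 it was 0.11, 0.16, 0.14 and 0.091 with normexp background, and 0.13, 0.19, 0.13 and 0.17 as a median over members. Against non-lincRNA probes it was 0.19, 0.31 and 0.013 on chromosomes 6, 8 and 15; quantile normalization gave 0.22 and 0.20 on chromosomes 8 and 11, the deposited series values 0.23 and 0.20, and members above background on at least 6 arrays 0.25 and 0.23. With regions as units chromosomes 6 and 8 had 0.19 and 0.22, and without probes sharing 25 bases, an alternative added after seeing the data, chromosome 8 had 0.18. Leaving out each array gave 0.163 to 0.186, 0.211 to 0.221, 0.169 to 0.196 and 0.120 to 0.154.

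A reference over all strata gave, from dim to bright, 0.38, 0.045 and 0.081 (chromosome 6), 0.22, 0.18 and 0.24 (8), 0.25, 0.076 and 0.25 (11), and 0.16, 0.049 and 0.20 (15); strata by the other 3 lines gave 0.20 in the middle of chromosome 8, and 0.10 (low) and 0.14 (high) on chromosome 15. LincRNA minus other probes was 0.0079 and -0.054 with 10 strata on chromosomes 6 and 15, and -0.046, -0.011 and -0.075 with no strata on chromosomes 6, 11 and 15.

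Members called higher against WT (74, 79, 48 and 15) numbered 20, 29, 18 and 6 with regions as units; 22, 26 and 4 with no filter, and 0, 0 and 2 with only the arrays of the 2 groups, on chromosomes 8, 11 and 15; and 28 and 29 on slide 1 alone on chromosomes 8 and 11. Each array left out gave 13 to 38, 1 to 108, 13 to 26 and 3 to 5. Against the other lines (150, 266, 45 and 58), regions as units gave 38, 78, 15 and 17, no filter 20 on chromosome 11, and each array of the 4 trisomic lines left out, those of the other lines as an alternative added after seeing the data, 26 to 151, 43 to 240, 12 to 39 and 14 to 58. A replicate block, for which the arrays are not paired, gave 78, 63, 48 and 13 against WT and 148, 265, 45 and 54 against the other lines. Of 35 named called members, 7 kept their call under every alternative; of 471 alternative fits 366 kept the call, 104 lost it and 1 turned the sign, A_30_P01025676 with regions as units (0.059). The cause was not tested. With overlapping strands merged, 945 became 688. Signal limits the low stratum, where few measurements were above background.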
